A study of Mus musculus with 6 samples.

Results

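The 37 genes described here encode transcription factors that set or maintain the identity of heart, lung, gut, kidney and neural tissue. They were chosen by symbol, and all 37 were found, through their Ensembl gene IDs, among the 18437 mRNAs listed in at least 1 of 6 mouse Ribo-seq libraries. Ribo-seq counts mRNA fragments shielded by ribosomes, so a value reflects how much of an mRNA is being translated in a tissue, and the amount of mRNA, its translation and the number of cells that carry it cannot be told apart in it. The 6 libraries carry the labels brain, heart, lung, kidney, colon and small intestine, with 1 library per label. All came from wild-type C57BL/6J mice aged 4 weeks that received no treatment, so the libraries share strain, genotype and age. The number and sex of the animals are not given in the sources used here. As each label has 1 library, differences have no replicate check, and the intervals below are 95% intervals of counting error alone.

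The reads on coding sequences (CDSs) ranged from 4504853 in the colon-labelled library to 10635031 under the brain label, and 11520 to 15028 mRNAs had reads. The brain-labelled library had the most reads and the fewest mRNAs with reads, so its zeros below rest on the largest total, spread over fewer mRNAs than in the other 5. Levels are given in RPKM, reads on the CDS scaled to the length of the CDS and to the reads on all CDSs. The mRNA Kri1 took between 0.4004% and 22.12% of the reads of a library, and every other RPKM in that library is lowered by that share. The members went against 4 of the 6 labels, as set out below. Each library is therefore named by its label throughout, the labels were not changed, and how the mismatch arose was not tested.

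Transcription factors of this kind bind short DNA words through conserved domains such as the zinc finger, homeodomain, T-box, forkhead, paired and basic helix-loop-helix domains, and switch on the genes by which a cell type is known. They act in combinations rather than alone. GATA4, NKX2-5, TBX5 and HAND2 work together in heart muscle, NKX2-1 with FOXA1 and FOXA2 in lung epithelium, CDX2 with HNF4A in intestinal epithelium, PAX2 with PAX8 in the developing nephron, and NEUROD factors in neurons of the forebrain. Many belong to families whose members share a nearly identical binding domain but are used in different organs, so that reads from 1 member could in principle be taken for another.

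The sequences of such families show how far related members can be told apart in these data. In each of the 3 pairs below, the lines give the coding strand, 5′ to 3′, of the first bases of the longest stretch in which both proteins have the same amino acids, and capitals mark the bases that differ between the members of the pair. Hnf4a (GRCm39 chr2:163348728-163414830, + strand) and Hnf4g (chr3:3573084-3724860, + strand) are shown because the libraries labelled brain, colon and kidney held them in different proportions. Gata4 (chr14:63436362-63509141, − strand) and Gata5 (chr2:179966880-179976509, − strand) are shown because they peaked in different libraries. Neurod2 (chr11:98216241-98220480, − strand) and Neurod6 (chr6:55654807-55658326, − strand) are shown because both had most of their reads in the small intestine-labelled library.
Hnf4a: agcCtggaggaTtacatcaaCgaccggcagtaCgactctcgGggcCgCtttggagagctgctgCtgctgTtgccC
Hnf4g: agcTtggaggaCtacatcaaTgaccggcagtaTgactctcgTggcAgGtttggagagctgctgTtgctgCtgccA
Gata4: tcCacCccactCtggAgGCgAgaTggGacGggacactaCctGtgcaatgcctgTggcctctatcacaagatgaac
Gata5: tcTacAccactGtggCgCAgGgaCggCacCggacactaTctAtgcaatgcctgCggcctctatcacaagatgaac
Neurod2: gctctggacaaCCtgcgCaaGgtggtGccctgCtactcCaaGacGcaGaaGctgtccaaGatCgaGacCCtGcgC
Neurod6: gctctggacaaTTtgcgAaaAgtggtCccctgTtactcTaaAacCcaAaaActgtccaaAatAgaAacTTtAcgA

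The Hnf4 stretch ran over 40 identical amino acids, and 15 of its 120 bases differed, 11 of them at the last position of a codon. The Gata stretch covered 26 amino acids with 14 of 78 bases differing, and the Neurod stretch 39 amino acids with 28 of 117 bases differing, 24 of them at the last codon position. Within none of these stretches did the 2 members share a window of 29 nt, the approximate length of a ribosome-protected fragment, so a fragment of that length differs between the members even where the proteins do not. This holds for exact windows. The Methods, written for macrophage libraries not analysed here, keep shorter reads and reads with up to 2 mismatches. The effect of such reads on telling members apart was not tested. Over whole CDSs, 25 of the 37 members shared no 29-nt window with any other mRNA, and the largest share of windows held in common was 2.37%. The CDSs of 9 members overlap an exon of another gene on the opposite strand, and strand use in the counting is not given in the sources used here. For 8 of them that gene is a long noncoding RNA or miRNA, while 302 of the 1494 CDS bases of Mef2a lie opposite the protein-coding gene Lysmd4.

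Of the 37 members, 35 had at least 10 reads in at least 1 library. The others were Pdx1, a factor of duodenum and pancreas that had 0 reads in every library, and Lhx1, a kidney and neural LIM-homeodomain factor that had 1 read in the brain-labelled library and 2 under the small intestine label. For each gene, the library with the highest RPKM was found, along with its fold over the next library, with values under 3 reads set to the RPKM of 3 reads. A gene was called for a library when that fold was at least 4 and the library held at least 10 reads of it. Among the members, 18 of 35 (51.4%) were called for a library. Among all 15202 mRNAs with 10 reads, 22.5% were called. The median fold was 4.13 for the members and 1.84 for all mRNAs, while the median RPKM in the highest library was close, 20.7 for the members and 21.8 for all. The density of these factors was thus close to that of mRNAs in general, in fewer libraries. The median member had 3 or more reads in 3 libraries against 5 for all mRNAs, 4 of 35 members had them in all 6 libraries against 48.8% of all mRNAs, and 6 of 35 had them in 1 library against 7.28%.

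**Figure D1:**
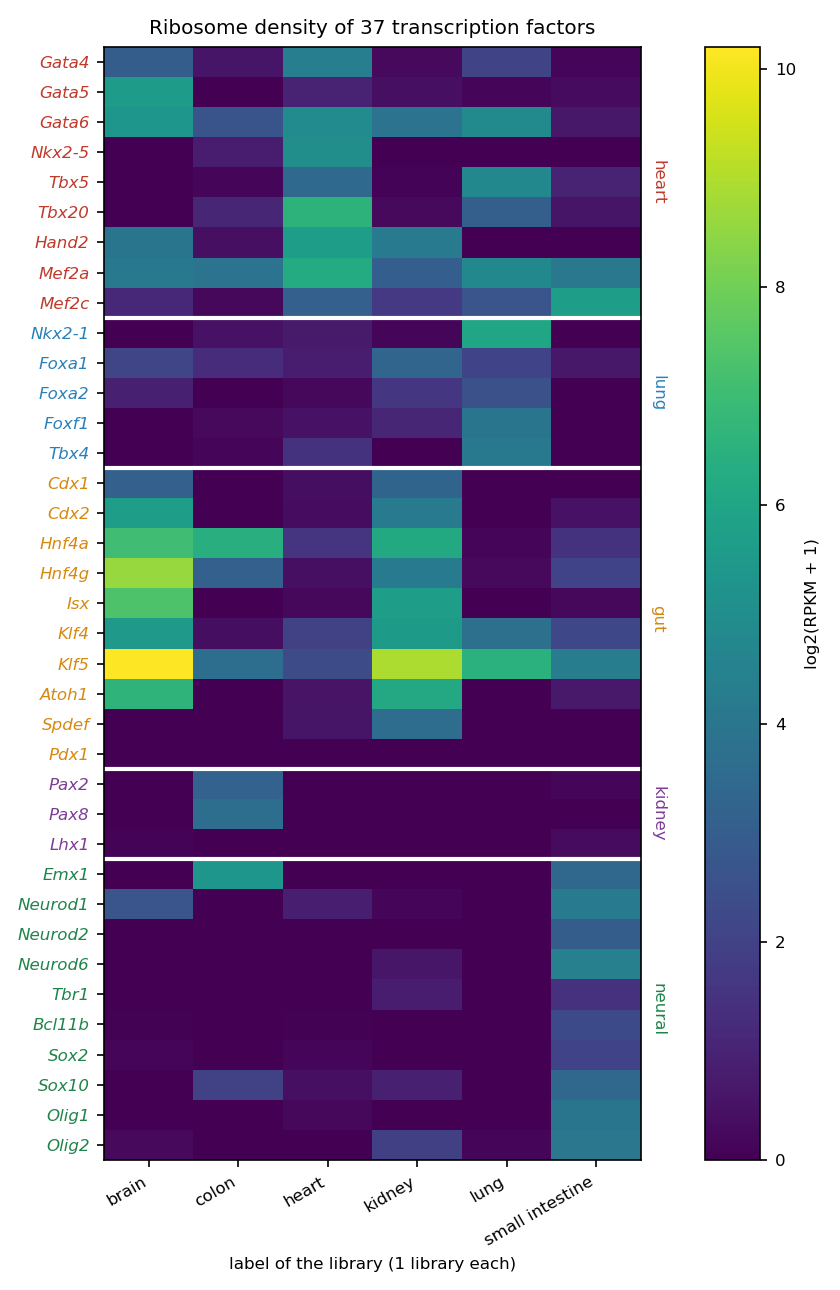
Ribosome density of the 37 members in the 6 libraries, as log2(RPKM + 1) by colour, with rows grouped by the organ a factor is known for and columns by the label of the library. The neural rows other than Emx1 are brightest in the column labelled small intestine, the gut rows in the columns labelled brain and kidney, Pax2 and Pax8 under the colon label, and the heart and lung lists in the columns with those labels, with Gata5, Gata6, Tbx5, Mef2c and Foxa1 brightest elsewhere.

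By library, the members with the highest value there numbered 8 in the brain-labelled library, 3 under the colon label, 5 under the heart label, 4 under the kidney label, 5 under the lung label and 10 under the small intestine label. The same libraries were highest for 15.1%, 15.3%, 12.7%, 8.77%, 24.9% and 23.3% of all mRNAs with 10 reads. Members were called for these libraries in numbers of 2, 3, 2, 1, 3 and 7, against 2.24%, 2.85%, 2.39%, 1.11%, 4.72% and 9.22% of all mRNAs. The heart and lung lists led in the libraries labelled heart and lung, while the kidney list led under the colon label, the gut list under the brain and kidney labels, and the neural list under the small intestine label.

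The 5 lists were also compared by their mean of log2(RPKM + 1). The heart list had 4.50 in the heart-labelled library and 2.57 in the next, labelled brain. The lung list had 3.74 in the lung-labelled library and 1.24 under the kidney label. The gut list had 5.42 in the brain-labelled library and 4.78 under the kidney label, with 1.36 or less in the rest. These 2 libraries were thus close to each other and far from the others. The kidney list had 2.30 in the colon-labelled library and at most 0.142 elsewhere. The neural list had 3.22 in the small intestine-labelled library and 0.738 under the colon label, where Emx1 made up most of it.

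**Figure D2:**
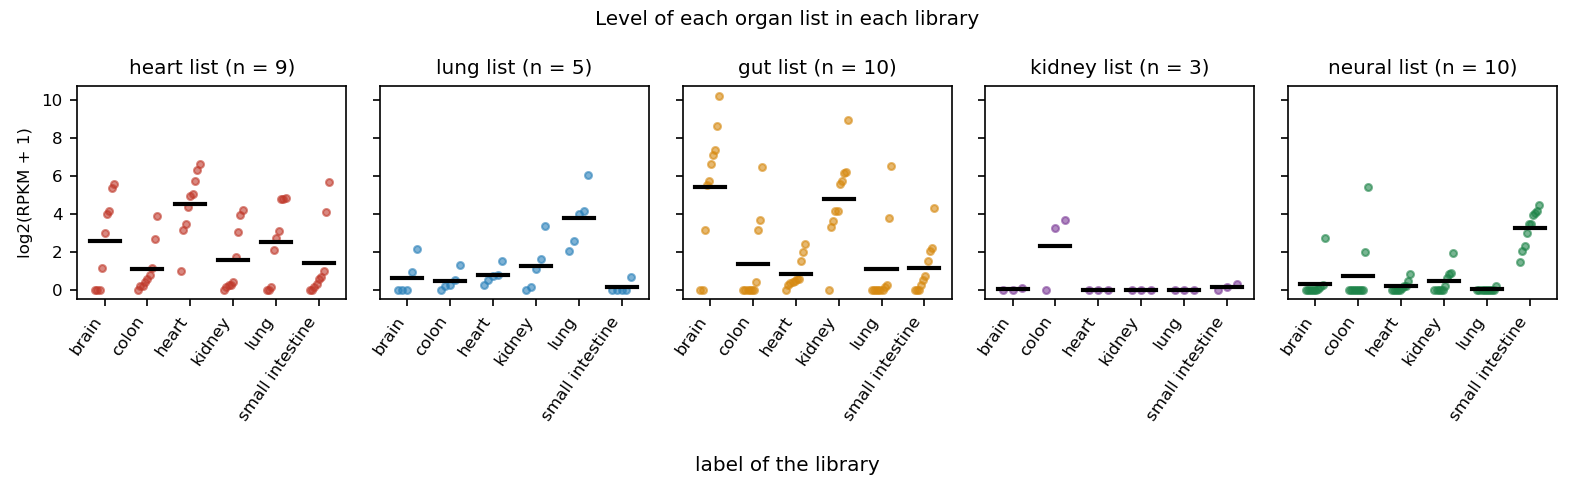
Level of each organ list in each library, with 1 point per member as log2(RPKM + 1) and a bar at the mean of the list. The bar of the neural list stands at 3.22 in the small intestine-labelled library and at 0.315 under the brain label, and the bar of the gut list at 5.42 and 4.78 in the libraries labelled brain and kidney.

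The heart list held 9 factors, of which 5 were highest in the heart-labelled library, against 12.7% of all mRNAs. Nkx2-5, the homeodomain factor of the cardiac lineage, had 31.9 RPKM (28.1 to 36.1) from 249 reads in the heart-labelled library, 3 reads under the colon label and none in the other 4. The ratio of the heart-labelled to the colon-labelled library was 45.7 (15.5 to 223). No other heart factor had so few reads outside the heart-labelled library. Tbx20, a T-box factor that maintains adult heart muscle, had 97.1 RPKM (91.4 to 103) in the heart-labelled library, 7.46 under the lung label, 1.16 under the colon label, 0.490 under the small intestine label, 0.198 under the kidney label and no reads under the brain label. It stood 13.0-fold (10.3 to 16.6) over the lung-labelled library. Both factors were called for the heart-labelled library, as were 2.39% of all mRNAs.

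Hand2, a basic helix-loop-helix factor of heart and of autonomic neurons, had 51.4 RPKM in the heart-labelled library, 17.4 under the kidney label and 14.7 under the brain label, with 1 read under the colon label and none under the lung and small intestine labels. It was thus present in the library with heart factors and in both with gut factors. Its relative Hand1, from the wider list of 55 tissue factors described below, had 47 reads (9.56 RPKM) in the kidney-labelled library and none elsewhere. Mef2a, a MADS-box factor of striated muscle, had 76.8 RPKM in the heart-labelled library, 26.5 under the lung label, 16.4 under the brain label, 15.8 under the small intestine label, 13.8 under the colon label and 7.24 under the kidney label. The fold over the lung-labelled library was 2.90 (2.55 to 3.31). It was the most evenly spread member of the heart list.

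The other 4 heart factors, Tbx5, Mef2c, Gata5 and Gata6, were highest elsewhere. Tbx5, the T-box factor of the atria and forelimb that also acts in lung mesenchyme, had 26.5 RPKM (23.6 to 29.5) in the lung-labelled library and 10.1 (8.47 to 12.1) under the heart label, a ratio of 2.61 (2.12 to 3.23), with 1.01 under the small intestine label, 1 read under each of the colon and kidney labels and none under the brain label. Its level in the lung-labelled library was therefore above that in the heart-labelled library by more than counting error. Mef2c, which acts in heart and skeletal muscle and also in cortical neurons, had 50.1 RPKM in the small intestine-labelled library, 7.74 under the heart label, 5.52 under the lung label, 2.27 under the kidney label, 1.23 under the brain label and 0.153 under the colon label. It was called for the small intestine-labelled library, 6.47-fold (5.18 to 8.16) over the heart-labelled library, and so moved with the neural list rather than with its own.

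The GATA factors are zinc finger proteins used in heart and in endoderm-derived epithelium. Gata4 had 19.4 RPKM in the heart-labelled library, 6.95 under the brain label, 3.32 under the lung label and 3 reads or fewer in the other 3, and stood 2.80-fold (2.19 to 3.59) over the brain-labelled library. Gata5 had 46.9 RPKM (43.3 to 50.8) from 605 reads in the brain-labelled library, 1.01 under the heart label and 3 reads or fewer elsewhere, 46.6-fold (25.1 to 97.6) over the heart-labelled library, and was called for the brain-labelled library. Gata6 had 39.8 RPKM in the brain-labelled library, 29.2 under the heart label, 27.5 under the lung label, 14.0 under the kidney label, 5.28 under the colon label and 0.592 under the small intestine label. The values of Gata6 in the libraries labelled heart and lung differed by a ratio of 1.06 (0.923 to 1.23), within counting error. Gata6 thus had reads in all 6 libraries, whereas Gata4 and Gata5 parted the heart-labelled library from the brain-labelled library.

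Pancreatic acinar genes were read in the heart-labelled library, with 36 reads of Pnlip, 30 of Ctrb1, 15 of Cela2a and 8 of Cpa1, against 2 reads or fewer of each in the other 5 libraries. Their part in the values of the heart list was not tested. Endothelial genes (Pecam1, Cdh5, Kdr, Tek and Emcn) had a summed level of 451 RPKM in the heart-labelled library and 2089 under the lung label. The sum was 25.5 to 186 RPKM in the other 4 libraries. Emcn taken singly was highest under the colon label at 11.3 RPKM, with 9.05 under the heart label and 5.29 under the lung label. The part of the endothelial genes in the levels of Gata6 and the T-box factors was not tested. In the wider list, 6 of 7 heart factors had 10 reads. Of these, 3 were highest in the heart-labelled library, against 12.7% of all mRNAs. Tead1, a TEA-domain factor of muscle, had 55.3 RPKM there and stood 4.46-fold (3.67 to 5.46) over the kidney-labelled library. As a whole, this wider heart list hardly parted the libraries. Its mean of log2(RPKM + 1) was 2.02 under the heart label, 1.97 under the kidney label and 1.81 under the brain label.

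All 5 lung factors had at least 10 reads, and 4 were highest in the lung-labelled library, against 24.9% of all mRNAs. Nkx2-1, the homeodomain factor of lung and thyroid epithelium, had 64.4 RPKM (59.2 to 70.0) from 556 reads in the lung-labelled library, 6 reads under the heart label, 2 under the colon label, 1 under the kidney label and none under the brain and small intestine labels. It stood 98.1-fold (44.8 to 268) over the heart-labelled library, the largest fold among the 35 members with 10 reads. Nkx2-1 is also a factor of the ventral forebrain and hypothalamus, yet the small intestine-labelled library, which held the neural factors, had no reads of it.

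The mesenchymal factors of lung followed the epithelial one. Foxf1, a forkhead factor of lung mesenchyme and endothelium, had 14.8 RPKM from 130 reads in the lung-labelled library, 1.16 under the kidney label from 10 reads and 4 reads or fewer elsewhere, 12.8-fold (6.72 to 27.2) over the kidney-labelled library. Tbx4, a T-box factor of lung mesenchyme and hindlimb, had 16.3 RPKM from 209 reads in the lung-labelled library, 1.84 under the heart label, 1 read under the colon label and none elsewhere. Its fold over the heart-labelled library was 8.85 (5.83 to 14.0). Nkx2-1, Foxf1 and Tbx4 were all called for the lung-labelled library, as were 4.72% of all mRNAs.

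The pioneer forkhead factors Foxa1 and Foxa2, which open chromatin in endodermal organs, were lower and less restricted. Foxa2 had 4.82 RPKM in the lung-labelled library, 2.08 under the kidney label, 0.876 under the brain label, 2 reads under the heart label and none under the colon and small intestine labels. Foxa1 had 9.02 RPKM in the kidney-labelled library, 3.42 under the brain label, 3.13 under the lung label, 1.42 under the colon label, 0.696 under the heart label and 0.559 under the small intestine label. It was the only lung factor highest outside the lung-labelled library, at 2.88-fold (1.93 to 4.39) over that library. Of the 6 lung factors of the wider list, 5 were highest in the lung-labelled library, against 24.9% of all mRNAs. Of these, 1 was called for it, against 4.72% of all mRNAs. This was Tbx2, with 39.2 RPKM there and a fold of 6.18 (4.75 to 8.17) over the colon-labelled library. Foxp2 and Hopx, named after their values were seen, led the next library by only 1.05-fold (0.625 to 1.78) and 1.12-fold (1.01 to 1.24). The median fold of the wider lung list was 1.84, the same as over all mRNAs.

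The gut list split between the libraries labelled brain and kidney. Of 9 gut factors with 10 reads, 6 were highest in the brain-labelled library and 3 under the kidney label, against 15.1% and 8.77% of all mRNAs. None was highest in the libraries labelled colon and small intestine. Of the 9, 2 (22.2%) were called for a library, close to the 22.5% of all mRNAs. Cdx2, the caudal homeodomain factor that specifies intestine, had 52.0 RPKM (47.6 to 56.7) in the brain-labelled library, 16.8 (13.9 to 20.1) under the kidney label, 3 reads under the small intestine label, 2 under the heart label and none under the colon and lung labels. Cdx1, its relative, had 7.72 RPKM in the brain-labelled library, 8.86 under the kidney label, 2 reads under the heart label and none in the other 3. Both caudal factors were thus near or at 0 in the libraries that carry the intestinal labels.

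Isx, an intestinal homeobox factor that represses vitamin A uptake genes, had 164 RPKM in the brain-labelled library, 51.0 under the kidney label, 1 read under each of the heart and small intestine labels and none in the other 2. Atoh1, the helix-loop-helix factor of the secretory lineage, had 97.3 RPKM in the brain-labelled library, 70.5 under the kidney label, 5 reads under the small intestine label, 4 under the heart label and none in the other 2. Spdef, which matures goblet and Paneth cells downstream of Atoh1, had 84 reads (11.4 RPKM, 9.06 to 14.1) in the kidney-labelled library, 4 under the heart label and none in the other 4. Spdef was called for the kidney-labelled library, at 16.6-fold under the fold rule and at a ratio of 22.7 (8.53 to 85.1) to the heart-labelled library.

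Klf5, a Krüppel-like factor of proliferating crypt epithelium, was the most abundant member, with 1179 RPKM in the brain-labelled library and 488 under the kidney label. It had 91.0 in the lung-labelled library, 18.8 under the small intestine label, 11.8 under the colon label and 4.20 under the heart label. Klf4, a Krüppel-like factor of differentiated epithelium, had 45.7 RPKM in the kidney-labelled library, 44.1 under the brain label, 12.5 under the lung label, 3.61 under the small intestine label, 2.95 under the heart label and 0.306 under the colon label. Both were present in the lung-labelled library and were not confined to the libraries with the caudal factors.

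Hnf4a, the nuclear receptor of liver, intestine and kidney epithelium, had 134 RPKM (128 to 140) in the brain-labelled library, 85.4 (78.4 to 92.9) under the colon label and 72.4 (67.4 to 77.7) under the kidney label. It had 1.89 in the heart-labelled library, 1.84 under the small intestine label and 1 read under the lung label. Hnf4g, its intestinal relative, had 396 RPKM (385 to 406) in the brain-labelled library, 16.9 under the kidney label, 7.85 under the colon label, 3.11 under the small intestine label, 0.353 under the heart label and 2 reads under the lung label. Hnf4g was called for the brain-labelled library. Hnf4a was high in 3 libraries and Hnf4g in 1, so the 2 relatives parted the libraries that Hnf4a alone joined.

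The libraries labelled brain and kidney were then compared factor by factor. The ratio of the brain-labelled library to the kidney-labelled library was 23.4 (20.1 to 27.3) for Hnf4g, 3.22 (2.83 to 3.68) for Isx, 3.09 (2.53 to 3.81) for Cdx2, 2.41 (2.34 to 2.49) for Klf5, 1.85 (1.70 to 2.01) for Hnf4a and 1.38 (1.25 to 1.53) for Atoh1. It was 0.966 (0.859 to 1.09) for Klf4 and 0.872 (0.599 to 1.27) for Cdx1, both within counting error of equality. Over 9424 mRNAs the median ratio of the same libraries was 1.31, and 62.5% of mRNAs were higher in the brain-labelled library, so Atoh1 was near the middle of all mRNAs and Hnf4g far from it. In RPKM, the only gut factor higher in the kidney-labelled library beyond counting error was Spdef, at least 39.3-fold over the value of 3 reads under the brain label. This depended on the scaling. Median-of-ratios scaling of these libraries brought Klf4 to 0.814, below its interval, and Cdx1 to 0.734, within its interval.

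Factors of the other lists also parted these libraries. The ratio of the brain-labelled library to the kidney-labelled library was 144 (49.0 to 699) for Gata5, with 605 reads against 3, and 34.9 (9.42 to 293) for Gata4, with 98 against 2. It was 2.85 (2.42 to 3.36) for Gata6. Gata4 is known for the proximal part of the small intestine. In the other direction, Foxa1 was 2.64-fold (1.86 to 3.78) and Foxa2 2.37-fold (1.14 to 5.13) higher in the kidney-labelled library. From the wider list, Creb3l3, a lipid-metabolism factor of liver and small intestine, had 116 RPKM in the brain-labelled library and 2.84 under the kidney label. Its fold was 40.6 (28.5 to 60.0). It was the only 1 of the 10 wider gut factors with 10 reads that was called (10%), against 22.5% of all mRNAs.

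**Figure D3:**
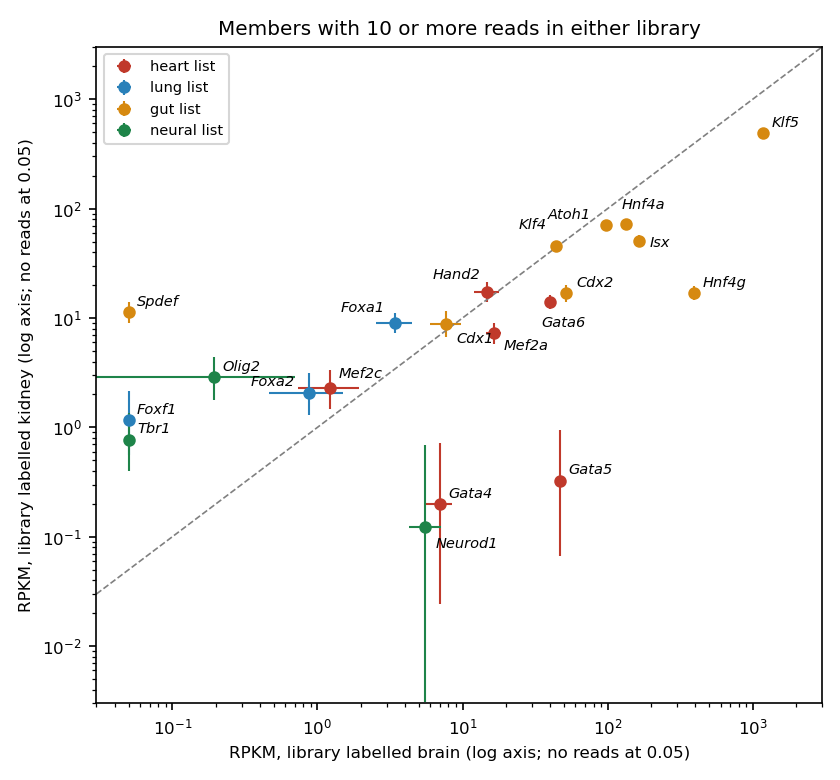
RPKM of members with 10 or more reads in the brain-labelled library (horizontal, log axis) against the kidney-labelled library (vertical, log axis), coloured by organ list, with 95% counting intervals and a dashed line of equality. Genes without reads are drawn at the left margin. Klf4, Cdx1 and Hand2 lie on or near the line, Hnf4g, Gata5 and Gata4 far to its right and Spdef far to its left.

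Both libraries also held smooth muscle and enteroendocrine genes. The smooth muscle genes Myh11, Acta2, Actg2, Cnn1 and Des summed to 1907 RPKM in the brain-labelled library and 2758 under the kidney label. The sum was 19.2 to 1121 RPKM in the other 4 libraries. Des taken singly was highest under the heart label at 738 RPKM, with 173 under the kidney label and 80.7 under the brain label. The part of the smooth muscle genes in the levels of the gut factors was not tested. The wider gut list gave a similar split, with 5 of its 10 factors with 10 reads highest in the brain-labelled library, 3 under the kidney label, 1 under the lung label and 1 under the small intestine label.

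In the kidney list, Pax2 and Pax8 had their reads in the colon-labelled library. Pax8, the paired-domain factor of nephron and thyroid, had 73 reads (11.8 RPKM, 9.26 to 14.9) there and none in the other 5 libraries, at least 41.0-fold above the value of 3 reads in any of them. Pax2, which acts with Pax8 in the renal epithelium, had 47 reads (8.36 RPKM, 6.14 to 11.1) in the colon-labelled library, 1 read under the small intestine label and none elsewhere, a ratio of 79.8 (13.6 to 3216) between the 2 libraries with reads. Both were called for the colon-labelled library, and both had 0 reads in the kidney-labelled library. The total of that library, 7583374 reads, was above the 4504853 of the colon-labelled library.

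The wider kidney list moved the same way. All 13 of its factors had 10 reads, 7 were highest in the colon-labelled library and 4 were called for it, against 15.3% and 2.85% of all mRNAs. Foxi1, the forkhead factor of intercalated cells, had 34.8 RPKM from 175 reads in the colon-labelled library and none in the other 5, at least 98.2-fold over the value of 3 reads there. Sim1, a factor of proximal tubule and hypothalamus, had 28.3 RPKM from 293 reads in the colon-labelled library and 1 read under the small intestine label. Tfap2b, a factor of the distal nephron, had 8.38 RPKM in the colon-labelled library and 0.570 under the small intestine label, and the fourth was Emx2 with 13 reads. The fifth kidney factor that was called, the podocyte factor Wt1, had 29 reads in the heart-labelled library and 1 under the small intestine label. Emx2 and Wt1 were named after their values were seen.

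Of the 10 neural factors, 9 were highest in the small intestine-labelled library and 6 were called for it, against 23.3% and 9.22% of all mRNAs. The neurogenic helix-loop-helix factors of the forebrain were clearest. Neurod6, of cortical and hippocampal pyramidal neurons, had 160 reads (20.7 RPKM, 17.6 to 24.2) in the small intestine-labelled library, 4 reads under the kidney label and none in the other 4, 31.4-fold under the fold rule and at a ratio of 39.7 (15.2 to 147) to the kidney-labelled library. Neurod2, which acts in the same neurons, had 61 reads (6.94 RPKM, 5.31 to 8.92) in the small intestine-labelled library and none in the other 5, at least 12.0-fold above the value of 3 reads in any of them. Both had 0 reads in the brain-labelled library.

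Neurod1, which acts in neurons and also in enteroendocrine and pancreatic islet cells, had 137 reads (16.7 RPKM) in the small intestine-labelled library, 63 reads (5.53 RPKM) under the brain label, 7 under the heart label, 1 under the kidney label and none in the other 2. The fold was 3.03 (2.23 to 4.14). The 6 enteroendocrine genes Chga, Chgb, Cck, Gcg, Sct and Tph1 all had 3 reads or more in both libraries with gut factors, at 1418 RPKM in sum in the brain-labelled library and 1937 under the kidney label. Neurod1 had reads in the first and 1 read in the second. Chga, Chgb and Cck, which neurons also use, brought the sum in the small intestine-labelled library to 7114 RPKM, with 6 reads of Gcg, 3 of Sct and 1 of Tph1. The part of enteroendocrine cells in the Neurod1 values was not tested.

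The factors of the cortex were lower. Bcl11b, a zinc finger factor of deep-layer and striatal neurons that is also needed in T cells, had 79 reads (3.90 RPKM, 3.09 to 4.86) in the small intestine-labelled library, 1 under each of the brain and heart labels and none in the other 3. The T cell genes Cd3d, Cd3e, Cd3g, Cd4, Cd8a and Lck had 0 to 29 reads each in the small intestine-labelled library. Their summed level was 3.44 RPKM there and highest under the lung label at 54.3 RPKM, although Cd3d and Cd4 taken singly were highest under the kidney label. The part of T cells in the Bcl11b values was not tested. Tbr1, a T-box factor of glutamatergic neurons, had 27 reads (1.73 RPKM) in the small intestine-labelled library, 12 (0.775 RPKM) under the kidney label and none elsewhere. The fold of Tbr1 was 2.23 (1.09 to 4.84), the lowest of the neural list.

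Factors of neural progenitors and of oligodendrocytes followed the neuronal ones. Sox2, an HMG-box factor of neural stem cells and glia, had 23 reads (3.14 RPKM) in the small intestine-labelled library, 1 under each of the brain and heart labels and none in the other 3. Olig2, of the oligodendrocyte lineage, had 115 reads (15.5 RPKM) in the small intestine-labelled library, 21 (2.86 RPKM) under the kidney label, 2 under the brain label, 1 under the lung label and none in the other 2, a fold of 5.43 (3.39 to 9.11). Olig1, its neighbour on chromosome 16, had 86 reads (14.4 RPKM) in the small intestine-labelled library, 1 under the heart label and none elsewhere. Both were called for the small intestine-labelled library. Unlike Olig2, Olig1 had no reads in the kidney-labelled library.

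Sox10, which acts in oligodendrocytes and in the neural crest-derived glia of nerves and gut, had 105 reads (9.82 RPKM) in the small intestine-labelled library, 19 under the colon label, 9 under the kidney label, 4 under the heart label and none in the other 2. The fold over the colon-labelled library was 3.26 (1.99 to 5.62).

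Emx1, a homeobox factor of the cerebral cortex, was the exception in the neural list. It had 141 reads (40.6 RPKM, 34.2 to 47.9) in the colon-labelled library, 58 (9.84 RPKM, 7.47 to 12.7) under the small intestine label and none in the other 4, a ratio of 4.13 (3.02 to 5.70), and was called for the colon-labelled library. Its highest value thus lay beside Pax2 and Pax8 rather than beside the other cortical factors. Its relative Emx2, a factor of cortex and of the urogenital tract, had 13 reads in the colon-labelled library and none elsewhere. Emx1 and Sox2, at folds of 4.13 and 4.52, were the members just inside the limit of 4, and Sox10 and Isx, at 3.26 and 3.22, those just outside it.

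In the wider neural list, 10 of 18 factors had 10 reads, of which 7 were highest in the small intestine-labelled library and all 7 were called for it. That library was highest for 23.3% of all mRNAs, and 9.22% were called for it. Myt1l, a zinc finger factor that keeps neurons neuronal, had 37.8 RPKM in the small intestine-labelled library and 1.30 under the kidney label, a fold of 29.2 (20.9 to 42.1). Cux2, of upper cortical layers, had 11.2 RPKM there and 2.51 under the heart label. The eighth neural factor that was called, Lhx2, had 9.80 RPKM in the brain-labelled library and was named after its values were seen. Over all 55 factors of the wider list, 17 of 45 with 10 reads were called (37.8%), between the 51.4% of the members and the 22.5% of all mRNAs.

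**Figure D4:**
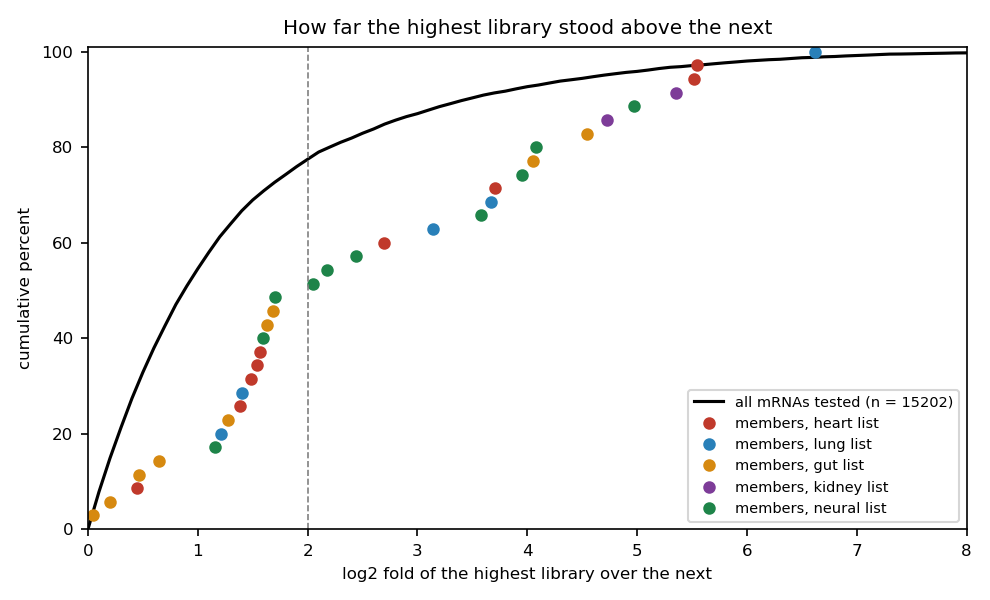
Cumulative percent of genes by the log2 fold of their highest library over the next, for all 15202 mRNAs with 10 reads (line) and the 35 members (points, coloured by organ list), with the limit of 4-fold dashed. Members lie to the right of the line over most of the range, with Klf4 and Cdx1 lowest and Nkx2-1 highest.

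Related members divided the libraries between them. Within the Gata family, Gata5 held 50.1% and Gata6 42.5% of the summed RPKM in the brain-labelled library, while Gata6 held 58.8% and Gata4 39.2% under the heart label. Gata6 held 96.4% in the kidney-labelled library and 88.9% under the lung label. The libraries with gut factors thus shared Gata6 and differed in Gata5. In the Hnf4 pair, Hnf4a held 25.3% in the brain-labelled library, 81.0% under the kidney label and 91.6% under the colon label. In the stretch of this pair printed above, 10 of the 75 bases shown differ between its members.

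The T-box and Mef2 families parted heart, lung and the library with neural factors. Tbx20 held 89.0% of the summed RPKM of Tbx4, Tbx5 and Tbx20 in the heart-labelled library, and Tbx5 52.7% and Tbx4 32.5% under the lung label. Mef2a held 90.8% of the Mef2a and Mef2c sum in the heart-labelled library and between 76.1% and 98.9% in the other libraries except the small intestine-labelled library, where Mef2c held 76.0%. Among the Neurod factors, Neurod6 held 46.6%, Neurod1 37.7% and Neurod2 15.6% in the small intestine-labelled library, and Neurod1 all reads under the brain label. The caudal pair differed less, with Cdx2 at 87.1% in the brain-labelled library and 65.5% under the kidney label. Klf5 held 91.4% or more of the Klf pair in both of these libraries.

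**Figure D5:**
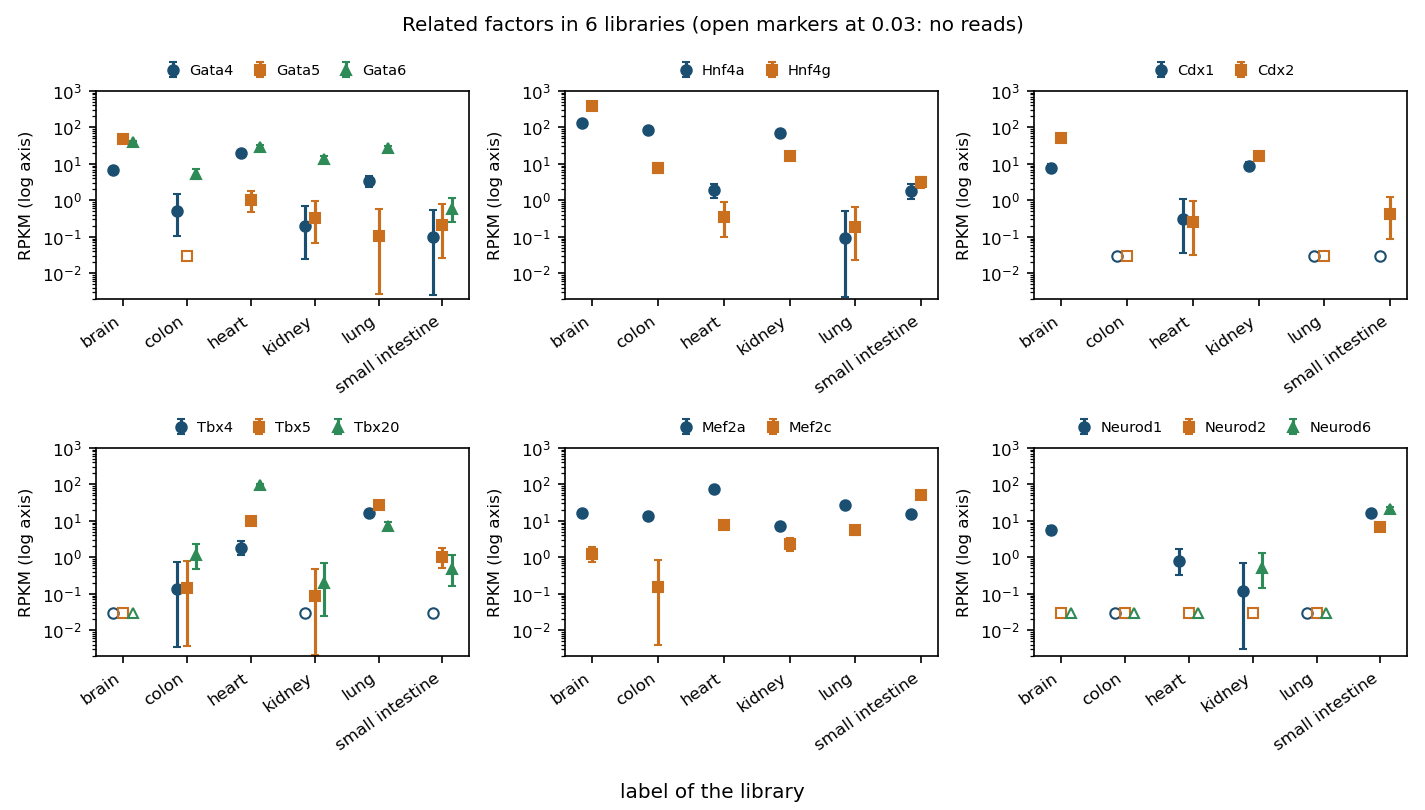
RPKM (log axis) of 6 sets of related factors in the 6 libraries, with 95% counting intervals and open markers for no reads. Hnf4g lies above Hnf4a in the brain-labelled library and below it under the colon and kidney labels, Tbx20 leads under the heart label and Tbx5 under the lung label, and Mef2c passes Mef2a under the small intestine label.

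The members shared a base composition that their choice did not use. The share of last codon positions that are G or C had a median of 71.0% over the 37 members, from 47.4% in Mef2a to 89.3% in Sox2, against 58.9% over all 18154 mRNAs with a matching CDS, and 32 of 37 members were above that value. The other 55 tissue factors had a median of 72.7%. Within families the share could differ widely between members used in the same library. Neurod2 had 83.7% and Neurod6 50.8%, and 24 of the 28 differing bases in their stretch were at the last codon position. Hnf4a had 73.0% and Hnf4g 49.2%. The members had a median CDS of 1218 nt against 1320 nt for all mRNAs, and 7 of 37 had their CDS in 1 exon against 11.7% of all.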

How the data were processed

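Ribo-seq of 6 mouse tissues, with 1 library each, was used. The deposited values are RPKM, computed by the authors for protein-coding mRNAs. Per the submitters' processing notes, cutadapt, STAR and GRCm39 were used, and the Methods, written for the macrophage libraries (not analysed here), describe unique alignment to 1 mRNA per gene, chosen by CDS length. Whole reads, taken as values within 0.01 of a whole number, were recovered for 100% of the values from RPKM and CDS length. Groups were taken from the tissue label. Gene IDs were matched to GENCODE M39 on GRCm39 (18424 of 18437), and 18154 CDSs of the same length were found.

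With 1 library per tissue, no test was made. Intervals are exact Poisson (levels) or exact conditional binomial (ratios), at 95%, and cover counting error only, since each tissue has 1 library. The reads carry no molecular identifiers, so duplicate reads count separately and the intervals may be too narrow. An mRNA was called for a library at 4-fold over the next library with at least 10 reads, with values under 3 reads set to 3. Organ list levels used log2(RPKM + 1). On simulated data the 6 libraries' reads were recovered for 100% of 18437 mRNAs, and 100% of 200 mRNAs changed 10-fold were called, with 0 others. The changed mRNAs were drawn only from those with many reads. All others had the same expected share in each library, unlike real tissues. The simulation therefore does not bear on members with few reads or on folds near 4.

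The members and lists were chosen with earlier results of these data known, so the pattern against the labels is not independent support of itself. Named genes were all 37 members and, from 55 other tissue factors, those called for a library, up to 3 per organ by RPKM; others are said to be named after their values. Some genes of the lists, and the promoter words searched, are not reported here. Alternatives covered scaling, thinning, the fold, the minimum of reads, the pseudocount, the list members and unique windows. The work was done in Python 3.11.15 (pandas 2.3.3, matplotlib 3.10.9, numpy 2.4.6, scipy 1.17.1).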

Additional observations from a re-analysis of the deposited data

How the results depend on the processing

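No paired analysis was possible because each tissue had 1 library. Each organ list kept its leading library under all 38 alternatives tried for its level. The lead over the next library, in log2 units, moved beyond counting error in these cases. Under median-of-ratios scaling it was 2.13 for the heart list (main value 1.93), 2.01 for lung (2.50), 0.431 for gut (0.646) and 2.68 for neural (2.49). Upper quartile scaling gave 2.18 for heart, 2.08 for lung and 0.394 for gut. Totals without Kri1 and mitochondrially encoded mRNAs gave 0.321 for gut and 2.68 for neural. A pseudocount of 0.1 gave 2.96, 3.76, 0.338, 3.54 (main value 2.16) and 4.84 for heart, lung, gut, kidney and neural. The median over the list gave 2.87 for lung, 1.32 for gut, 3.08 for kidney and 3.35 for neural. 1 alternative left out Gata4, Gata6, Foxa1, Foxa2, Hnf4a, Sox2, Bcl11b and Neurod1, set down as acting in other organs too. It gave 2.25 for heart, 3.79 for lung and 2.34 for neural. It kept members such as Tbx5, Mef2c, Gata5, Nkx2-1 and Sox10, which are also described above for another organ, so it did not remove all shared members. With Emx1 in the kidney list the lead was 2.71 for neural.

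A fold of 2 in place of 4 called 30 members, against 45.5% of all mRNAs. It called 5 rather than 2 heart factors for the heart-labelled library and 4 rather than 1 gut factors for the brain-labelled library. The shares of all mRNAs called for each of these libraries at that fold are not given here, so these counts have no background. A fold of 10 called 13 members, against 10.8% of all mRNAs. With the libraries labelled heart and lung alone, an alternative chosen after seeing the data, 8 of 9 heart factors were higher in the heart-labelled library, and the lead of the lung list was 2.99. Median-of-ratios scaling of the libraries labelled brain and kidney left 6 gut factors higher in the brain-labelled library, with Hnf4g at 19.7, Isx 2.71, Klf5 2.03, Hnf4a 1.56, Atoh1 1.16 and Klf4 0.814. Counting by unique 29-nt windows left all 32 family shares within counting error. Read totals limit the factors with few reads, such as Sox2 and Tbr1.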
